A study of Mus musculus with 6 samples.

Results

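The genes described here are the core of the signalling route that IL-2 uses inside a cell, together with the inhibitors that the route switches on against itself. They were chosen by symbol, as the entries of the deposited expression table named Jak1, Jak3, Stat5a, Stat5b, Cish, Socs1, Socs2, Socs3, Pim1 and Myc. All 10 were found among 21358 entries, and all 10 passed the minimum level for testing, a mean of 0.1 FPKM over the libraries. FPKM divides the fragments of a gene by the length of its exons and by all fragments mapped in that library, so levels of different genes can be set side by side.

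RNA was sequenced from whole tumors of C57/BL6 mice carrying B16F10, a syngeneic melanoma cell line, under the skin. The mice were irradiated and, once tumors measured at least 150 mm3, were given pmel-1 T cells by adoptive cell transfer (ACT). These cells carry a transgenic T cell receptor against the melanoma antigen gp100. In the ACT + IL-2 group these cells were supported by recombinant IL-2, given into the peritoneum on several days of each cycle, and in the ACT + NKTR-214 group by NKTR-214, IL-2 joined to releasable polyethylene glycol chains, given into a vein once per cycle and at another dose. Tumors were taken at day 12 after treatment, 1 library from each of 3 mice per group. By the study's dosing schedule, a further cycle of the cytokine had begun in both groups before that day. Irradiation, the transferred cells and a form of IL-2 were shared by both groups, so the groups differ in the form of IL-2 together with its dose, route and schedule, which cannot be told apart, and tumors without a cytokine were not analysed here. The transferred cells were splenocytes of pmel-1 mice activated with gp100 peptide, and the host's own lymphocytes can return after irradiation, so T cell RNA in a tumor can come from either source.

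IL-2 binds a receptor of an alpha, a beta and a common gamma chain. The kinase JAK1 sits on the beta chain and JAK3 on the gamma chain, and together they phosphorylate the transcription factors STAT5A and STAT5B, which then enter the nucleus and bind DNA. Among the genes that STAT5 induces are Cish and the Socs genes, whose proteins bind the receptor or the kinases and damp the signal, and Pim1, a kinase that favours survival and growth. In T cells IL-2 is a well known inducer of Cish, Pim1 and Myc. Many of these genes are also used by other cytokines and by cells other than T cells, Socs3 and Myc among them.

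STAT5 binds DNA at palindromes of the form TTCNNNGAA, so the start regions of the members were searched for these letters. The windows run from 250 bases before to 50 bases after the transcription start in RefSeq, build GRCm38.p6, and the pattern reads the same on both strands. Of the members, 8 genes had a start region to search, with 11 windows. No start region was available for Socs2 or Myc, so neither gene was searched. Only the windows of Cish and Socs3 held the pattern, which is capitalised in the 30 bases printed for each, written 5′ to 3′ along the gene's strand. They are shown because Cish had the largest change of the members and carries the pattern more than once.
Cish: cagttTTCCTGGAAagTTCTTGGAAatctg
Socs3: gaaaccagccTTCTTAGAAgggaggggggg
The Cish stretch lies at chr9:107296654-107296683 on the plus strand, from 5 bases before to 24 bases after the start, inside the 5′ UTR of a longer annotated transcript. Its 2 palindromes are centred 4 and 15 bases after the start. The Socs3 stretch lies at chr11:117969501-117969530 on the minus strand, 164 to 135 bases before the start, with its palindrome centred 150 bases before it, inside an intron of a longer annotated noncoding transcript of Socs3. Of 32851 windows in the reference table, 2726 (8.30%) held at least 1 such palindrome and 150 (0.457%) held at least 2. A match describes letters only, and binding was not measured. The absence of a match in the other windows covers only these 300 bases.

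Of the 10 members, 7 were higher in ACT + NKTR-214 tumors than in ACT + IL-2 tumors (limma on log2(FPKM + 1), Benjamini-Hochberg adjusted p under 0.05), and 0 were lower. The counts were the same at an unadjusted p under 0.05 and with limma-voom on the reads per gene, which were worked back from the steps of the FPKM values and came to 11557568 to 15967049 reads on genes per library. When the variance was not moderated across genes, Cish alone of the members passed the threshold. Over all 14172 genes tested, 20.7% were called higher and 8.28% lower. At an unadjusted p under 0.05 these shares were 26.2% and 13.2%, and with limma-voom 23.2% and 24.4%. The same 7 members, Jak1, Jak3, Cish, Socs1, Socs2, Socs3 and Pim1, had every ACT + NKTR-214 tumor above every ACT + IL-2 tumor, an arrangement that 27.1% of all genes showed. Stat5a, Stat5b and Myc were not called. The median log2 fold change of the members was 0.87, and that of all genes tested was 0.05. Every log2 fold change below is ACT + NKTR-214 minus ACT + IL-2 on the log2(FPKM + 1) scale, on which genes at low levels show less than their true change. Bulk tumor RNA cannot tell fewer or more cells of a type from less or more RNA per cell.

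**Figure D1:**
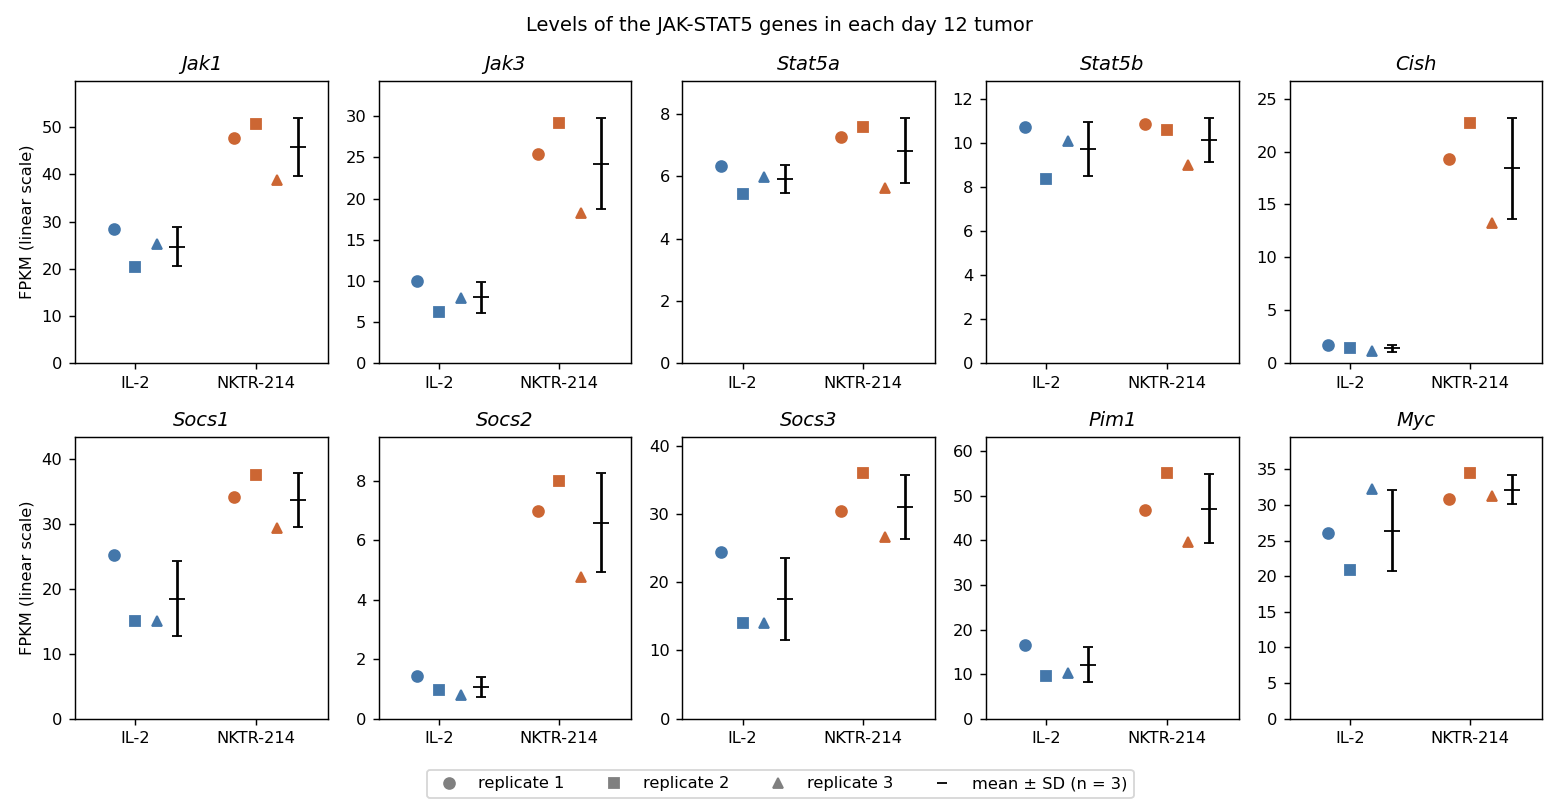
Level of each JAK-STAT5 gene in FPKM on a linear axis from 0, 1 panel per gene, for the 3 ACT + IL-2 and the 3 ACT + NKTR-214 tumors. Each symbol is 1 tumor, and the bar beside a group is its mean ± SD (n = 3). The groups stand apart for 7 genes and overlap for Stat5a, Stat5b and Myc.

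The JAK kinases were both higher, with the larger fold for Jak3. Jak1 (chr4:101152367-101265282, minus strand, GRCm38), which also serves interferon and IL-6 family receptors and is used in most cell types, measured 28.5, 20.3 and 25.3 FPKM in the ACT + IL-2 tumors, given here and below in the order of their replicate numbers. It measured 47.8, 50.8 and 38.9 FPKM in the ACT + NKTR-214 tumors, all above the highest ACT + IL-2 tumor. The means were 24.7 ± 4.13 and 45.8 ± 6.19 FPKM (SD, n = 3), a 1.85-fold difference, or 0.87 as a log2 fold change (SE 0.16, adjusted p = 0.00077, limma).

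Jak3 (chr8:71676296-71690575, plus strand), the partner of the common gamma chain and largely a gene of blood cells, measured 9.94, 6.19 and 7.92 FPKM in the ACT + IL-2 tumors. In ACT + NKTR-214 tumors it measured 25.4, 29.2 and 18.2 FPKM, and the groups did not overlap. The mean went from 8.02 ± 1.88 to 24.3 ± 5.56 FPKM, 3.03-fold, or 1.48 as a log2 fold change (SE 0.19, adjusted p = 2.4e-05, limma). Jak3 shares 7.55% of its exon bases with Insl3, a gene on the same strand, and reads there cannot be assigned to 1 of them with certainty. Insl3 had the same log2 fold change, 1.48. Within each tumor the level of Jak3 was 0.322 ± 0.023 times that of Jak1 in ACT + IL-2 and 0.525 ± 0.053 times in ACT + NKTR-214. The ratio was higher in every ACT + NKTR-214 tumor (p = 0.1 by an exact permutation test, two-sided, which cannot go lower with 3 tumors per group).

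The STAT5 genes themselves were at nearly the same level in both groups. Stat5a (chr11:100859351-100885169, plus strand) measured 6.31, 5.41 and 5.99 FPKM in the ACT + IL-2 tumors and 7.27, 7.58 and 5.62 FPKM in the ACT + NKTR-214 tumors. The groups overlapped through ACT + NKTR-214 replicate 3. The log2 fold change was 0.17, with a 95% interval from -0.16 to 0.51 (adjusted p = 0.450, limma). On leaving out 1 tumor it ran from 0.10 (without ACT + NKTR-214 replicate 2) to 0.29 (without ACT + NKTR-214 replicate 3), and with quantile normalization it was 0.04.

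Stat5b, its neighbour on chromosome 11 (chr11:100780731-100850724, minus strand), measured 10.7, 8.36 and 10.1 FPKM in the ACT + IL-2 tumors. It measured 10.9, 10.6 and 9.0 FPKM in the ACT + NKTR-214 tumors, again with overlap. The log2 fold change was 0.06 (95% interval -0.26 to 0.38, adjusted p = 0.821, limma), and its sign turned negative under other scalings of the libraries, with values down to -0.05. These intervals leave room for changes of either sign but not for one of the size seen for Jak3. STAT5A and STAT5B are close relatives: 8.52% of the 50-base windows of Stat5a transcripts and 11.0% of those of Stat5b also occur in another gene, nearly all in each other, so the split of reads between them is uncertain to that extent. Stat5b stood 1.64 ± 0.087 times as high as Stat5a in ACT + IL-2 and 1.50 ± 0.10 times in ACT + NKTR-214, with overlap (exact two-sided permutation test, p = 0.2).

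Cish had the largest difference of the members. CISH, the founding member of its inhibitor family, binds cytokine receptors at the sites where STAT5 docks and also restrains T cell receptor signalling. Cish (chr9:107296026-107302784, plus strand) measured 1.73, 1.39 and 1.10 FPKM in the ACT + IL-2 tumors. In the ACT + NKTR-214 tumors it measured 19.3, 22.7 and 13.3 FPKM, so the lowest of these was far above the highest ACT + IL-2 tumor. The mean went from 1.41 ± 0.316 to 18.4 ± 4.78 FPKM, 13.1-fold. The log2 fold change was 2.99 (SE 0.19, adjusted p = 4.5e-08, limma), rank 50 among the 14172 genes. With a pseudocount of 0.1 in place of 1 it was 3.61, and with limma-voom on recovered reads 3.60. The ACT + IL-2 values rest on 69 to 124 reads per library and those of ACT + NKTR-214 on 947 to 1665. Antisense and pseudogene entries share 11.5% of the exon bases of Cish, and whether strand was used in counting is not given in the sources used here.

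Socs2, which damps growth hormone and other STAT5 signals, followed Cish at a lower level. It measured 1.45, 0.956 and 0.798 FPKM in the ACT + IL-2 tumors and 6.99, 8.01 and 4.75 FPKM in the ACT + NKTR-214 tumors (chr10:95385362-95417180, minus strand). The groups did not overlap, and the mean went from 1.07 ± 0.338 to 6.58 ± 1.67 FPKM, 6.17-fold. The log2 fold change was 1.86 (SE 0.18, adjusted p = 1.95e-06, limma), and 2.52 with a pseudocount of 0.1. Its lowest library held 45 reads, a counting error of 14.9%, which is smaller than the spread of 31.7% (SD as a percent of the mean) among the ACT + IL-2 tumors. Of the windows of Socs2 transcripts, 4.58% also occur in other genes, mainly a pseudogene.

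Socs1 and Socs3 started from much higher levels and differed by smaller folds. SOCS1 blocks JAK kinases directly and is a main brake on interferon-gamma and IL-2 signals. Socs1 (chr16:10782240-10785536, minus strand) measured 25.1, 15.1 and 15.1 FPKM in the ACT + IL-2 tumors and 34.1, 37.5 and 29.3 FPKM in the ACT + NKTR-214 tumors. ACT + IL-2 replicate 1 came closest to the other group without reaching it. The means were 18.4 ± 5.78 and 33.6 ± 4.11 FPKM, 1.82-fold, or 0.87 as a log2 fold change (SE 0.19, adjusted p = 0.0023, limma).

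SOCS3 acts mainly on receptors of the IL-6 family, and its gene is induced by STAT3 in many cell types. Socs3 (chr11:117966079-117970047, minus strand) measured 24.5, 14.1 and 14.0 FPKM in the ACT + IL-2 tumors and 30.5, 36.0 and 26.6 FPKM in the ACT + NKTR-214 tumors. As for Socs1, ACT + IL-2 replicate 1 stood closest to the other group. The mean went from 17.5 ± 6.04 to 31.0 ± 4.70 FPKM, 1.77-fold, or 0.83 as a log2 fold change (SE 0.20, adjusted p = 0.0046, limma). This was the only member call that was lost on leaving out 1 tumor: without ACT + IL-2 replicate 2 the log2 fold change was 0.70 and the adjusted p was 0.0682.

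Pim1 encodes a kinase that needs no activating partner, so its activity follows its amount. It measured 16.6, 9.56 and 10.3 FPKM in the ACT + IL-2 tumors and 46.8, 55.1 and 39.6 FPKM in the ACT + NKTR-214 tumors (chr17:29490753-29496112, plus strand). The groups were far apart. The mean went from 12.1 ± 3.86 to 47.2 ± 7.74 FPKM, 3.89-fold, or 1.90 as a log2 fold change (SE 0.19, adjusted p = 2.3e-06, limma). An antisense entry shares 14.5% of the exon bases of Pim1.

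Myc, the growth regulator that IL-2 induces in T cells and that many tumor cells also express, did not pass the threshold. It measured 26.1, 20.9 and 32.3 FPKM in the ACT + IL-2 tumors and 30.8, 34.4 and 31.2 FPKM in the ACT + NKTR-214 tumors (chr15:61985391-61990374, plus strand). ACT + IL-2 replicate 3 was higher than all but 1 of the ACT + NKTR-214 tumors. The log2 fold change was 0.29, with a 95% interval from -0.05 to 0.64 (adjusted p = 0.198, limma). It was 0.14 without ACT + IL-2 replicate 2, 0.44 without ACT + IL-2 replicate 3 and 0.19 with scaling to the 75th percentile, and was not called in these fits either.

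**Figure D2:**
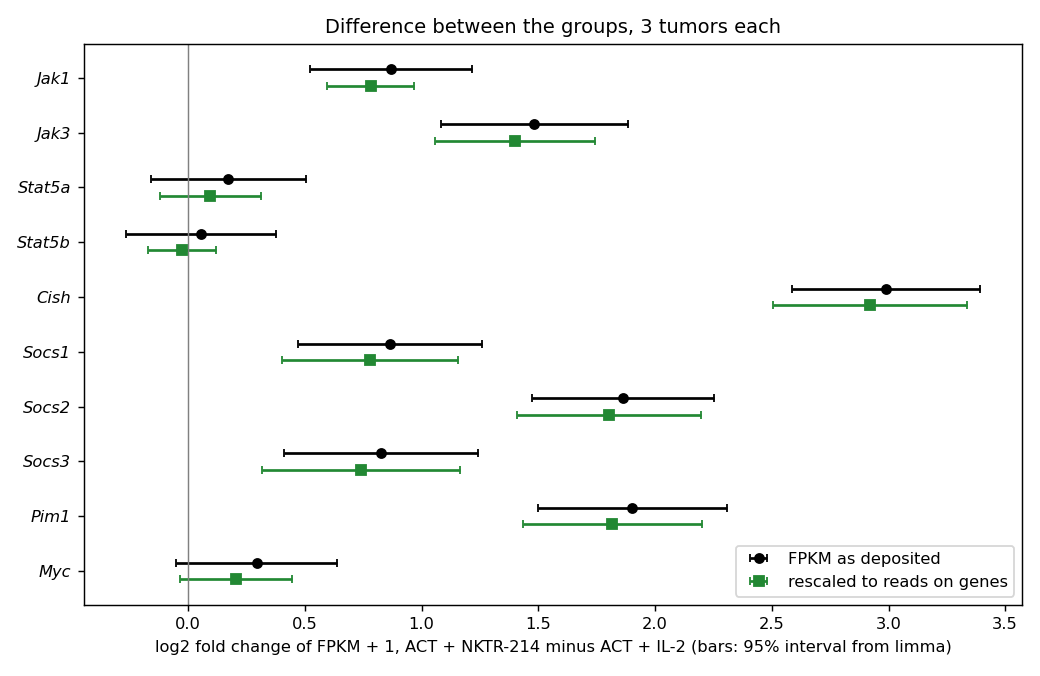
Log2 fold change of FPKM + 1, ACT + NKTR-214 minus ACT + IL-2, for each JAK-STAT5 gene, with its 95% interval from limma. Black circles are FPKM as deposited and green squares are FPKM rescaled to the reads on genes. Cish lies at 2.99 and 2.92 on these scales, and only the intervals of Stat5a, Stat5b and Myc reach 0.

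The order of the genes by level differed between the groups. In ACT + IL-2 tumors Myc (26.4 ± 5.71 FPKM) and Jak1 had the highest means, followed by Socs1, Socs3, Pim1, Stat5b, Jak3 and Stat5a, with Cish and Socs2 at the bottom. The values of each gene overlapped those of the next in this order except for the step from Stat5a down to Cish. In ACT + NKTR-214 tumors Pim1 and Jak1 were at the top, followed by Socs1, Myc (32.1 ± 2.00 FPKM), Socs3, Jak3, Cish, Stat5b (10.1 ± 1.00 FPKM), Stat5a (6.82 ± 1.05 FPKM) and Socs2. There the values separated between Jak1 and Socs1, between Cish and Stat5b and between Stat5b and Stat5a. Cish thus stood below both STAT5 genes in every ACT + IL-2 tumor and above both in every ACT + NKTR-214 tumor.

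For 6 pairs, ratios within a tumor are given as FPKM over FPKM, which does not depend on how libraries are scaled. They were tested as log2 ratios of FPKM + 1, where the added 1 leaves some dependence on scaling for Cish and Socs2 at their low levels. Cish was 0.090 ± 0.019 times the summed level of Stat5a and Stat5b in ACT + IL-2 tumors and 1.07 ± 0.172 times in ACT + NKTR-214 tumors. Socs2 was 0.750 ± 0.078 times Cish in ACT + IL-2 and 0.358 ± 0.005 times in ACT + NKTR-214, and here every ACT + NKTR-214 tumor was lower. Pim1 was 0.470 times Myc in ACT + IL-2 tumors and 1.46 times in ACT + NKTR-214 tumors. For these 3 ratios and for Jak3 over Jak1 the groups did not overlap, and each gave p = 0.1 by an exact permutation test, two-sided, and 0.15 after adjustment over the 6 ratios. With 3 tumors per group no lower p exists, so none can pass a threshold of 0.05. Socs1 and Socs3 kept nearly the same ratio, 1.06 ± 0.029 and 1.09 ± 0.040, with overlap (exact two-sided permutation test, p = 0.4).

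**Figure D3:**
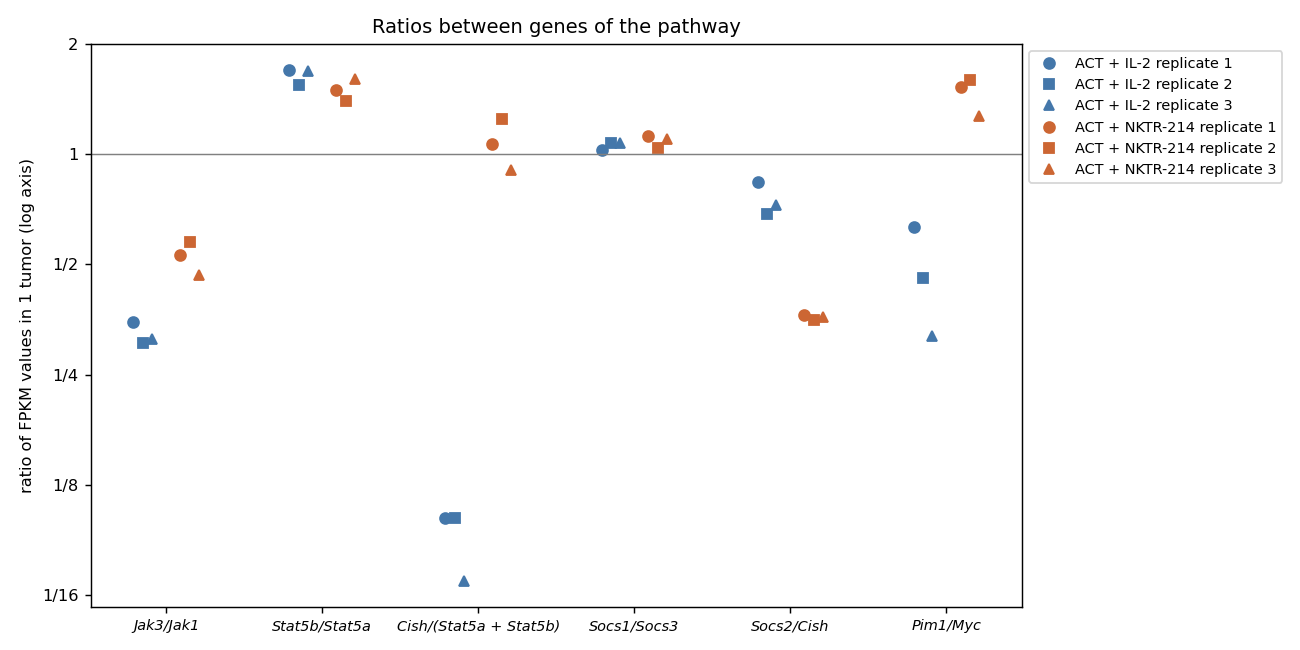
Ratio of the FPKM values of the named genes within 1 tumor, on a log axis, with the 3 ACT + IL-2 tumors in blue and the 3 ACT + NKTR-214 tumors in orange. Cish over the STAT5 sum is 0.090 on average in ACT + IL-2 and 1.07 in ACT + NKTR-214, and Socs1 over Socs3 stays near 1 in all 6 tumors.

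The tumors of a group kept a common order over most members. ACT + IL-2 replicate 1 was the highest of its group for 9 of the 10 members. ACT + NKTR-214 replicate 2 was the highest and replicate 3 the lowest of its group, each for 9 members. ACT + IL-2 replicate 2 was the lowest for 6 members, and in this library 50.6% of the reads behind the FPKM denominator fell on genes, against 59.0% to 64.9% in the others. After rescaling to the reads on genes it was the lowest for 2 members, and the 7 members still separated the groups, a pattern that 28.9% of all genes then showed. The rescaled median log2 fold change was 0.78 for the members and -0.02 for all genes tested. The share of all genes called higher was then 23.8% and the share called lower 24.6%, so the balance of calls over all genes depends on the scaling. The member calls were the same on both scales.

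Most lists of cell type markers moved with the groups too. Of all genes tested 20.7% were called higher and 8.28% lower, and after rescaling to the reads on genes 23.8% and 24.6%. The summed level of 10 T cell genes ranged from 16.1 to 34.9 FPKM in the ACT + IL-2 group and from 175 to 374 FPKM in the ACT + NKTR-214 group, a 12.9-fold difference of means, with 10 of 10 called higher. Macrophage and monocyte genes were called higher for 6 of 6 (71.7 to 181 FPKM against 302 to 457 FPKM). Neutrophil genes were called higher for 4 of 5 (3.75 to 9.17 against 21.2 to 48.5 FPKM). In that list Ly6g lay below the minimum for testing, at 0 FPKM in every tumor but ACT + NKTR-214 replicate 2. S100a8 and S100a9 had its highest ACT + NKTR-214 means, 13.3 and 13.7 FPKM. Dendritic cell genes were called higher for 4 of 5 (7.04 to 10.8 against 18.4 to 29.0 FPKM) and fibroblast genes for 4 of 5 (143 to 409 against 376 to 733 FPKM). Of 5 NK cell genes 2 were higher, with sums of 1.12 to 2.72 against 6.32 to 9.60 FPKM. These were Klrb1c (means of 0.42 and 3.69 FPKM) and Eomes (0.54 and 3.51 FPKM), and the paper counts Eomes among its T cell genes. Ncr1, the defining NK receptor, and Klra8 were not called, and Klra4 lay below the minimum for testing. Of 5 endothelial genes 1 was higher, near the share over all genes, with sums of 25.3 to 57.2 against 39.6 to 79.3 FPKM. B cell genes were called in neither direction (sums of 0.890 to 2.01 against 0.960 to 1.54 FPKM), and Ms4a1 and Pax5 lay below the minimum for testing. Of 7 melanoma genes 5 were lower, with sums of 5413 to 6933 against 2664 to 3763 FPKM, high enough in every library for the labelled tissue. ACT + IL-2 replicate 1, the highest of its group for most members, also had the highest T cell, macrophage and fibroblast sums of its group. All 10 T cell calls and both NK cell calls were kept in each of the 6 fits without 1 tumor. Without ACT + IL-2 replicate 2 the calls of 4 fibroblast, 3 macrophage and monocyte, 3 dendritic cell, 1 neutrophil and 1 endothelial gene were lost, with adjusted p from 0.0513 to 0.184 (limma). Of the macrophage and monocyte genes, Adgre1 was also lost without ACT + IL-2 replicate 3 (adjusted p = 0.0887, limma). Of the 5 melanoma calls, those of Tyr and Mitf were kept in each fit. Those of Pmel, Tyrp1 and Sox10 were lost without ACT + IL-2 replicate 3, ACT + NKTR-214 replicate 1 or ACT + NKTR-214 replicate 2, and that of Pmel also without ACT + NKTR-214 replicate 3 (adjusted p from 0.0521 to 0.166, limma). The part of these cell types in the member differences was not tested.

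Set against T cell genes, Cish was the one member whose level did not separate the groups. The mean log2(FPKM + 1) of the 10 T cell genes was 1.57 ± 0.407 in ACT + IL-2 and 4.37 ± 0.527 in ACT + NKTR-214 tumors, a difference of 2.80. For each member this mean was subtracted from its own log2(FPKM + 1) in the same tumor. The relative level of Cish was -0.59, -0.12 and -0.23 in the ACT + IL-2 tumors. It was -0.26, -0.18 and 0.07 in the ACT + NKTR-214 tumors. The groups overlapped, with a difference of 0.19 (exact two-sided permutation test, p = 0.5) that became -0.54 when Cd3e alone stood for the T cells.

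The other 9 members were lower relative to T cell genes in every ACT + NKTR-214 tumor than in every ACT + IL-2 tumor. So were 98.8% of all genes tested, since the same rise of the T cell genes is taken from each, and the count of 9 says nothing particular to the members. Pim1 and Socs2 came nearest to Cish, with differences of -0.90 and -0.94. Jak3 followed at -1.32, then Jak1 and Socs1 at -1.93 each and Socs3 at -1.97. Myc, Stat5a and Stat5b, the genes not called, were at -2.50, -2.62 and -2.74. With a pseudocount of 0.1 Cish was at 0.31, and Socs2 came nearest to it at -0.77, then Pim1 at -1.31 and Jak3 at -1.71. Each of the 9 gave an exact two-sided permutation p of 0.1, the smallest possible here. With Cd3e alone in place of the 10 genes the differences were larger, from -1.62 for Pim1, -1.66 for Socs2 and -2.04 for Jak3 to -3.47 for Stat5b, in each case again with p = 0.1 (exact permutation test). A relative level says how a gene moved beside the T cell genes and does not say which cells its RNA came from.

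**Figure D4:**
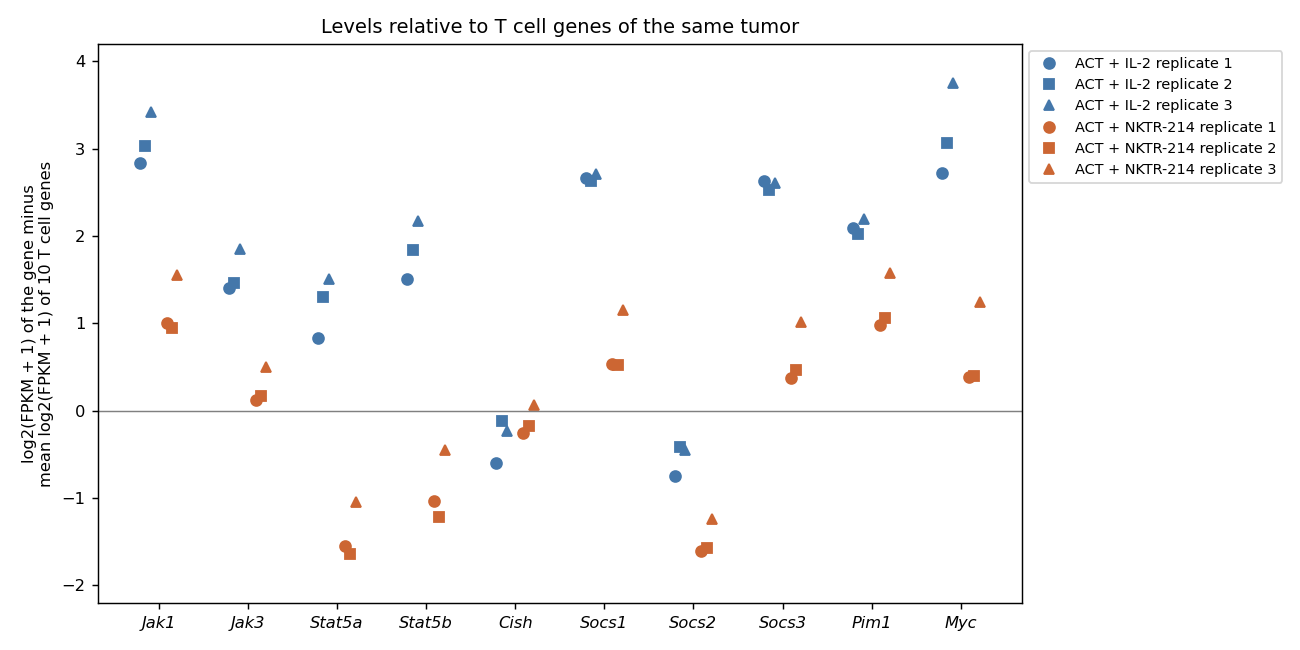
Level of each JAK-STAT5 gene relative to T cell genes, as its log2(FPKM + 1) minus the mean log2(FPKM + 1) of 10 T cell genes in the same tumor, 1 symbol per tumor. The groups overlap for Cish, at -0.32 and -0.12 on average, and the ACT + NKTR-214 tumors are the lower for every other gene.

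Genes whose levels ran most like those of Cish over the 6 libraries were found among 11558 genes with a mean of at least 1 FPKM. Among the closest were Tnfsf14, the cytokine LIGHT of activated T cells (Pearson r = 0.9998 of log2(FPKM + 1)), and Podnl1, a small leucine-rich proteoglycan gene (r = 0.9995). Tnfsf14 measured 0.561, 0.421 and 0.359 FPKM in the ACT + IL-2 tumors and 3.47, 3.98 and 2.73 FPKM in the ACT + NKTR-214 tumors, with the order of the tumors of Cish in each group. Both genes were below 1 FPKM in each ACT + IL-2 tumor and entered the comparison only through the ACT + NKTR-214 tumors. All points share the group difference, which by itself gives a high r, so the r describes these 6 libraries only.

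The other genes of the pathway were read from the same fit, in lists set by textbook role. Of 63 listed genes 58 were tested, 28 were higher and 0 were lower, and at an unadjusted p under 0.05 the counts were 34 and 1 (limma). With limma-voom on recovered reads they were 34 and 3, and with FPKM rescaled to the reads on genes 33 and 3. The shares of all genes under these 4 rules were 20.7% higher and 8.28% lower, 26.2% and 13.2%, 23.2% and 24.4%, and 23.8% and 24.6%. The median log2 fold change of the 58 was 0.43, against 0.05 for all genes tested.

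Upstream of the kinases, the receptors of the common gamma chain family were higher for 7 of 7 tested, with a median log2 fold change of 2.21. Il2ra, the alpha chain that T cells raise on activation and that makes the receptor bind IL-2 tightly, went from 0.655 ± 0.189 to 21.4 ± 2.74 FPKM, a log2 fold change of 3.76. Il2rb, the signalling chain that carries JAK1, went from 5.75 ± 2.22 to 88.5 ± 29.7 FPKM (3.72), and Il2rg, the common gamma chain that carries JAK3, from 16.3 ± 7.37 to 77.8 ± 25.8 FPKM (2.21). The chains particular to other cytokines had log2 fold changes of 2.46 for Il7r, 1.90 for Il4ra, 1.88 for Il21r and 1.12 for Il15ra, and Il9r lay below the minimum. Of the 6 ligand genes only Il15 and Il7 reached the minimum. Il15, which is presented by myeloid and stromal cells and signals through the same beta and gamma chains, rose by 0.50 on the log2 scale (adjusted p = 0.019, limma), but the call was lost without ACT + IL-2 replicate 2 or 3 or ACT + NKTR-214 replicate 1 or 2, with an adjusted p of 0.0659 at most, in the last case. Il7 differed by 0.15 on that scale (adjusted p = 0.218, limma).

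**Figure D5:**
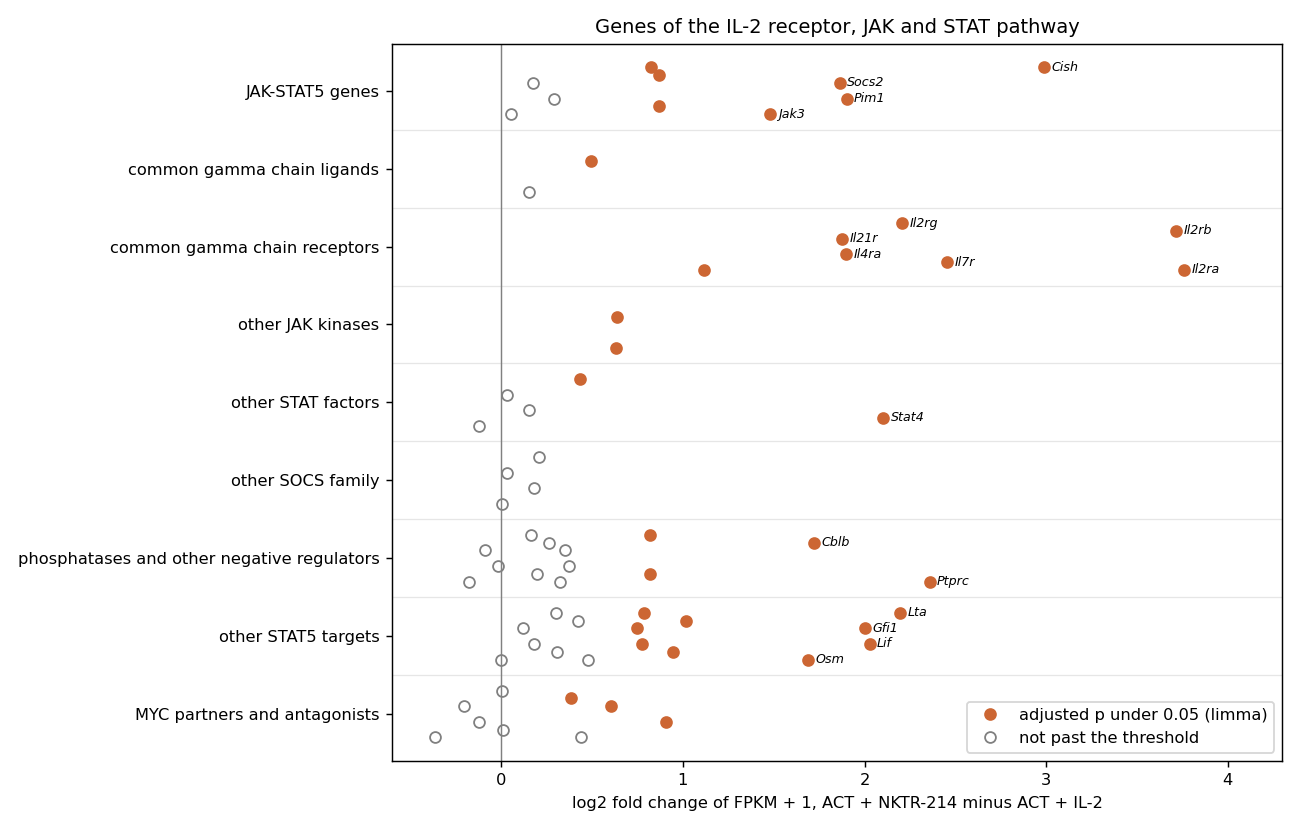
Log2 fold change of FPKM + 1, ACT + NKTR-214 minus ACT + IL-2, for the 10 JAK-STAT5 genes and the genes tested in the other lists of the pathway, 1 row of points per list. Filled points passed an adjusted p of 0.05 in limma and open points did not. The receptors reach furthest right, with Il2ra at 3.76, and all 4 points of the other SOCS genes lie near 0.

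Both other JAK kinases and part of the other STAT genes were higher. Jak2, used by growth hormone and interferon-gamma receptors, and Tyk2, used by type I interferon and IL-12 receptors, were both higher, by 0.64 and 0.63 on the log2 scale. Among 5 other STAT genes Stat4, the IL-12 factor of T and NK cells, rose from 0.924 ± 0.247 to 7.67 ± 3.12 FPKM (log2 fold change 2.10, adjusted p = 5.9e-06, limma). Stat6, the IL-4 factor, was called at 0.43 on the log2 scale (adjusted p = 0.043, limma), a call lost on leaving out ACT + IL-2 replicate 3, ACT + NKTR-214 replicate 1 or ACT + NKTR-214 replicate 2, with an adjusted p of 0.151 in the last case. Stat2 and Stat3 had log2 fold changes of 0.16 and 0.03 and were not called, and Stat3 changed sign to -0.05 after rescaling to the reads on genes.

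None of the remaining SOCS genes passed the threshold. Socs4, Socs5, Socs6 and Socs7 had log2 fold changes of 0.03, 0.18, 0.21 and 0.01, and 0 of 4 were called (limma, also at an unadjusted p under 0.05, and 0 with limma-voom). The signs of Socs4 and Socs7 turned negative after rescaling to the reads on genes. Of 13 phosphatases and other negative regulators 4 were higher, where 20.7% of all genes were, so the count says little about the list. After rescaling to the reads on genes 6 were higher and 1 lower. The 4 were Ptprc, the leukocyte phosphatase CD45 (log2 fold change 2.36), Cblb, an E3 ligase that restrains T cell activation (1.72), and the tyrosine phosphatases Ptpn1 and Ptpn6 (0.82 each). The call of Ptpn6 was lost without ACT + IL-2 replicate 2 (log2 fold change 0.72, adjusted p = 0.0577, limma).

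Of 16 further targets of STAT5 9 were higher, against 20.7% of all genes, and the median log2 fold change was 0.76. After rescaling to the reads on genes 12 were higher, against 23.8% of all genes, and with limma-voom 13, against 23.2%. Most of the 16 are known to be induced, but Bcl6, which IL-2 and STAT5 are known to repress in T cells, is among them and was not called (0.30). The largest were Lta, which encodes lymphotoxin alpha (2.20), the cytokine Lif (2.03) and the transcriptional repressor Gfi1 (2.00), each below 1 FPKM on average in ACT + IL-2. Foxp3, which defines regulatory T cells and was picked here after its values were seen, was 2.21 ± 0.219 FPKM with IL-2 and 2.21 ± 0.221 FPKM with NKTR-214. Its 95% interval ran from -0.29 to 0.29 on the log2 scale (adjusted p = 0.996, limma). Of 9 partners and antagonists of MYC 3 were higher, against 20.7% of all genes, and after rescaling to the reads on genes 3 were higher and 2 lower, a count that says little about the list. Mycn measured 0.0323, 0 and 0.0923 FPKM in the ACT + IL-2 tumors, below the minimum for testing, and passed it only through the ACT + NKTR-214 tumors, so its call adds nothing to the count. It was at 0.0415 ± 0.0468 FPKM with IL-2 and 0.961 ± 0.184 FPKM with NKTR-214 (log2 fold change 0.91), and Mxd1, a MYC antagonist, was higher by 0.61. Mycl was called at 0.38 on the log2 scale (adjusted p = 0.048, limma), but the call was lost without ACT + IL-2 replicate 2 or 3 or ACT + NKTR-214 replicate 1 or 2, with an adjusted p of 0.182 at most, in the first case. It was also lost after rescaling to the reads on genes (adjusted p = 0.0963, limma).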

How the data were processed

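Single-end RNA-seq of 6 whole tumors was used, 3 per group. Per the submitters' processing notes and the study's methods, the authors mapped reads to GRCm38 with HISAT2 2.0.4 and counted them per gene with HTSeq; the annotation and strand setting are not given in the sources used here. The authors deposited FPKM on a linear scale, 1 column per tumor, and 0 columns were left unused.

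Values were taken as log2(FPKM + 1), with no scaling beyond that of the authors. Genes with a mean of at least 0.1 FPKM entered a fit with limma 3.58.1 (R 4.3.3; lmFit, then eBayes using an intensity trend; Benjamini-Hochberg adjustment over 14172 genes, threshold 0.05). The fit was also run on simulated data, with noise drawn separately for each gene and library. Shifts shared by a whole library were not simulated, so that run says nothing about calls that change with scaling. For ratios and levels relative to T cell genes, exact permutation tests were two-sided. No block was used: replicate numbers stand for different mice, and deviations of same-numbered tumors correlated at -0.21, -0.07 and 0.40.

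FPKM values were whole multiples of what 1 read is worth. Whole reads came out for 15558 of 15561 genes (99.98%) with values in at least 4 libraries, within 0.003 reads beyond rounding. This gave estimated denominators of 20852563 to 24612357 reads and 11557568 to 15967049 reads on genes per library. Counting errors cover counting only.

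The members, lists and tests were chosen with earlier results of these data known. The genes named are the 10 members, all genes of lists of up to 8, the 3 largest called changes in either direction of longer lists, all marker lists by summed level, and the 3 genes most like the member with the largest positive change; no member had a negative one. The values of a few genes that this rule names are not reported here. Positions are from GENCODE vM21 and start regions from RefSeq. Alternatives were a pseudocount of 0.1, a minimum of 1 FPKM or none, scaling to the 75th percentile, quantile normalization, no trend, no moderation, a replicate block, Cd3e alone for the T cells and each tumor left out. Rescaling to the reads on genes and limma-voom on recovered reads were chosen after seeing the data. Tables and figures used Python 3.11.15 with matplotlib 3.10.9, numpy 2.4.6 and pandas 2.3.3.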

Additional observations from a re-analysis of the deposited data

How the results depend on the processing

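The 7 members called higher numbered 7 under every alternative except no moderation of the variance and the fit without ACT + IL-2 replicate 2 (6 members), and 0 were called lower under every alternative run. With no moderation of the variance, 1 member (Cish, adjusted p = 0.043), 101 of all genes and 3 of the pathway lists were higher and 27 of all genes lower, and the other 6 members had an adjusted p of 0.0586 to 0.140 (limma without moderation). The count of all genes lower, 1173, was 3709 with scaling to the 75th percentile, 4549 with quantile normalization, 3490 after rescaling to the reads on genes and 3461 with limma-voom on recovered reads (3281 higher), and 3, 4, 3 and 3 genes of the pathway lists were then lower. The median of all genes, on the log2 scale, was 0.05 as deposited and -0.10 with quantile normalization. Leaving out 1 tumor gave 2005 to 3476 of all genes higher, 636 (without ACT + IL-2 replicate 3) to 1996 (without ACT + IL-2 replicate 2) lower, 680 lower without ACT + NKTR-214 replicate 2, and 0 to 1 pathway genes lower. The log2 fold change of Stat5b turned to -0.043 with scaling to the 75th percentile, -0.050 with quantile normalization, -0.025 after rescaling and -0.028 with limma-voom, and ran from -0.040 (without ACT + IL-2 replicate 2) to 0.13 on leaving out 1 tumor. Cish relative to Cd3e alone was -0.54. Replicate numbers pair no samples here. With them as a block, 7 members, 3090 of all genes higher and 1227 lower were called. Cish and Socs2 rest on as few as 69 and 45 reads per library, and 3 tumors per group limit every single-gene permutation test to p = 0.1.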
